A study of Mus musculus with 10 samples.

Results

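Of the 30062 regions obtained by merging the H3K4me2 peaks of 8 mouse lymphocyte libraries, 2519 were called in both libraries of group 2 innate lymphoid cells (ILC2s) and in no library of any T cell. They are described here as ILC2-alone regions. Peaks of all lists were joined where they lay within 500 bp of each other, and a joined region was kept when both ILC2 lists had a peak in it and none of the 6 lists of naive T cells, Th2 cells, spleen CD4+ cells and thymus CD4+ cells had one. They made up 8.38% of all merged regions and 13.0% of the 19367 regions called in both ILC2 libraries, and covered 5.47 Mb. Presence and absence of peaks chose these regions, so their number, height and width are given as a description and were not tested.

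ILC2s, Th2 cells and cells labelled naive T cells were each profiled once from bronchoalveolar lavage and once from the mediastinal lymph node, and CD4+ lymphocytes once each from spleen and thymus. The protocol shared by all samples names Gata3-YFP/YFP mice, which carry a yellow fluorescent reporter of Gata3, with airway inflammation, as the source, and sorting on antibodies and YFP. The labels give no age, no sort gate and no treatment behind the inflammation, and leave unstated whether any animal gave more than 1 library. The IgG samples from spleen and thymus, which served the peak finder as background, carry the H3K4me2 antibody in their labels although their titles say IgG. Pairs of values give the lavage ILC2 library first and the lymph node library second.

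ILC2s are tissue lymphocytes without a rearranged antigen receptor that respond to epithelial alarmins such as IL-33 and TSLP with type 2 cytokines, and they depend on the transcription factors GATA3 and RORα. Th2 cells make many of the same cytokines but are activated through the T cell receptor. Dimethylation of lysine 4 on histone H3 (H3K4me2) marks promoters and enhancers of active or poised genes, so a region marked in 1 cell type alone points to a stretch of regulatory DNA to examine, without showing that a gene is transcribed.

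The libraries held 11870820 to 24945548 tags and 14723 to 21985 peaks, and the authors' estimate of tags in peaks ran from 28.71% and 29.3% in the Th2 libraries to 53.68%, with 43.2% and 44.99% in the ILC2 libraries. Of 18 ILC2 marker genes, 16 had a peak in both ILC2 libraries, and Il17rb and Ptgdr2 had no region assigned. The T cell libraries had a peak at 10 to 14 of the 18. Summed height over these markers was 34426.7 and 35832.1 tags in ILC2s and 9928.3 to 17840.3 in the T cell libraries. Thy1 went the other way, with 437.7 and 452.5 tags in ILC2s and 1128.3 to 3460.2 in the T cell libraries. Icos had 2321.4 and 1946.5 in ILC2s, below the 2876.8 to 3889.8 of Th2 cells and lavage naive T cells. In the other T cell libraries Icos had 248 to 1697. Ly6a, at 1072.3 and 657.9 in ILC2s, overlapped the T cell libraries at 512.2 to 1156.9. Of 10 T cell markers, Cd3g and Trbc1 had no region in any library. The other 8 had a peak in each of the 6 T cell libraries. Of these, 6 (Cd3d, Cd3e, Cd247, Trac, Cd5 and Lat) also had one in both ILC2 libraries, while Cd4 and Themis had none there. Summed height over the T cell list was 2227.7 and 2372.6 tags in the ILC2 libraries against 14796.3 to 25090 in the T cell libraries. The ILC2 and T cell libraries also differed on the sex chromosomes. At Xist, the RNA of the inactive X chromosome in female cells, no peak was called in ILC2s, 155 to 196.9 tags were counted in Th2 cells and lavage naive T cells, and 605.5 to 727.2 in lymph node naive T cells, spleen and thymus. For the 4 ILC2-alone regions on chromosome Y, at Kdm5d, Eif2s3y, Uty and Ddx3y, cell type and sex of the animals cannot be told apart. If the sex of the animals differed between ILC2 and T cell libraries, it did so for all other ILC2-alone regions as well. Its part in them was not tested. Without chromosome Y the count was 2515, and the X chromosome held 36 ILC2-alone regions, 5.41% of its merged regions.

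The promoters below were shown because they lie wholly inside tall ILC2-alone regions or belong to genes described later. Each is the RefSeq window of GRCm38.p6, the assembly of mm10, from 250 bases before to 50 after a listed start site, 5′ to 3′ on the gene's strand, with capitals at matches to the motifs searched on both strands. These were AGATAA and TGATAA for GATA factors, AGGTCA for the ROR half-site, TGANTCA for AP-1, TGTGGT for RUNX and GGAAGT for ETS factors. The first 4 lie in the tallest regions that hold a whole window. Gm15908 and Pxdc1, with overlapping windows on opposite strands in a region of 612.1 and 464.7 tags (chr13:34645996-34654034) and 1 ETS match each, rank among them as well and are not printed. Cpa3 and Tph1 were chosen after their values were seen.
Gm36228, chr10:24959891-24960190, minus strand: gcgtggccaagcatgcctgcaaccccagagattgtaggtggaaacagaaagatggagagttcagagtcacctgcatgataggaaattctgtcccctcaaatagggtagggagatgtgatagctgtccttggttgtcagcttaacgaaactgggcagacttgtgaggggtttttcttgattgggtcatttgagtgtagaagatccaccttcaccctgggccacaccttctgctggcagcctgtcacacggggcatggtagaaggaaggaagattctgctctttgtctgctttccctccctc
Hs3st1, chr5:39644582-39644881, minus strand: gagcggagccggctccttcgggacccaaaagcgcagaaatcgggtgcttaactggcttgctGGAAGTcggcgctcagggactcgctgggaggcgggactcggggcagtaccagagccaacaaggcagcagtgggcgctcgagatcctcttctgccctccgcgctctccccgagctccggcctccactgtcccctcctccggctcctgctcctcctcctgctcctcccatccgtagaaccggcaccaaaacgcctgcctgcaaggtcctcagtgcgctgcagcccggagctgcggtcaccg
Alox5, chr6:116461129-116461428, minus strand: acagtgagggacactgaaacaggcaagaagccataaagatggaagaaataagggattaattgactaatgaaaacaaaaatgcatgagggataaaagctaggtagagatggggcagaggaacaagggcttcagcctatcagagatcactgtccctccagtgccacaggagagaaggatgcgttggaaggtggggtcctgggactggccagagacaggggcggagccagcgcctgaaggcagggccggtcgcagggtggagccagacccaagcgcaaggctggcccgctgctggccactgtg
Adgrg7, chr16:56795809-56796108, minus strand: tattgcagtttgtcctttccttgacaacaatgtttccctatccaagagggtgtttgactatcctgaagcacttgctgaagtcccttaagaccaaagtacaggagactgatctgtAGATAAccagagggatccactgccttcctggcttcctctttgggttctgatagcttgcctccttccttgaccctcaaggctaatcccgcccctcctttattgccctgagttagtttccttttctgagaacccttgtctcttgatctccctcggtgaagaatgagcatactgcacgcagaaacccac
Cpa3, chr3:20242132-20242431, minus strand: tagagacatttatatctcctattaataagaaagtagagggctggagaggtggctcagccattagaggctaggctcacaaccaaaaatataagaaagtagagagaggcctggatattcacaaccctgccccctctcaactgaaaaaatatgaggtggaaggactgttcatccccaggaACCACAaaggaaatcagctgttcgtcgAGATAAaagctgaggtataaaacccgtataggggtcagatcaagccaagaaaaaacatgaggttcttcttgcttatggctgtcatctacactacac
Tph1, chr7:46667328-46667627, minus strand: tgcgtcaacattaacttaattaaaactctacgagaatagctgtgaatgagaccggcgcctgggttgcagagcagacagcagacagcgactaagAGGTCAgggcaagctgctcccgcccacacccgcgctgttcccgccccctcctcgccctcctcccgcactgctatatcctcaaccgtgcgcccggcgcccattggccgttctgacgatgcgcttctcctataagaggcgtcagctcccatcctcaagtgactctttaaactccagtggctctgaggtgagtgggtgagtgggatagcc

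Gm36228 is a long noncoding RNA gene whose start lies in the tall region 22947 bp from Arg1, and its window held no match. Hs3st1, which encodes a heparan sulfate sulfotransferase, had 1 ETS match. Alox5, the arachidonate lipoxygenase that starts leukotriene synthesis, had none. Adgrg7, an adhesion G protein-coupled receptor gene, had 1 GATA match. In Cpa3, which encodes a carboxypeptidase stored in mast cell granules, a RUNX and a GATA match were found. Tph1, the enzyme gene for the first step of serotonin synthesis, had 1 ROR half-site. A match is a string of letters and not a binding site.

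The ILC2-alone regions were low compared with the rest of the ILC2 landscape. Height is the number of tags in a peak, scaled by the authors to 10000000 tags, and the height of a region in a library is that of its tallest peak there. The lavage library had a median of 73.8 tags over the 2519 regions, with quartiles of 52.5 and 109.8 and a range of 36.9 to 1259.1. In the lymph node library the median was 78.4, the quartiles 55.2 and 119.1, and the range 36.8 to 1109. The 16848 ILC2 regions that at least 1 other library shared had medians of 167.2 and 171.3. Most ILC2-alone regions thus stood above the tag minimum of about 40 tags by a small factor, with 258 of them under 50 tags in both libraries. A mean height of 100 tags or more was reached by 773 regions (30.7%), 200 or more by 173, 500 or more by 18 and 1000 or more by 3. The authors' fold over IgG had medians of 12.65 and 12.78 in these regions, against 29.86 and 30.3 in the shared ones.

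The regions were also short. Median width was 1799 bp (quartiles 1511 and 2376.5, highest 14776), against 3943.5 bp for the 11038 regions called in all 8 libraries and 1276 bp for the 2275 called in thymus CD4+ cells alone. A region spans the joined peaks of all its libraries, so more libraries can widen it by construction. Within each ILC2 library, median peak width was 1534 and 1576 bp in ILC2-alone regions. In ILC2 regions shared with at least 1 other library it was 2737.5 and 2786.5 bp. Of all 2519, 97 were wider than 5 kb and 9 wider than 10 kb. Height counts tags over the whole peak, and width and mean height ran together across the 2519 regions (Spearman 0.93 across regions, which share their libraries). The number of ILC2-alone regions depended on the peak threshold: 910 remained when both ILC2 peaks had to reach 80 tags, and 961 when every library gave its 14723 tallest peaks.

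**Figure D1:**
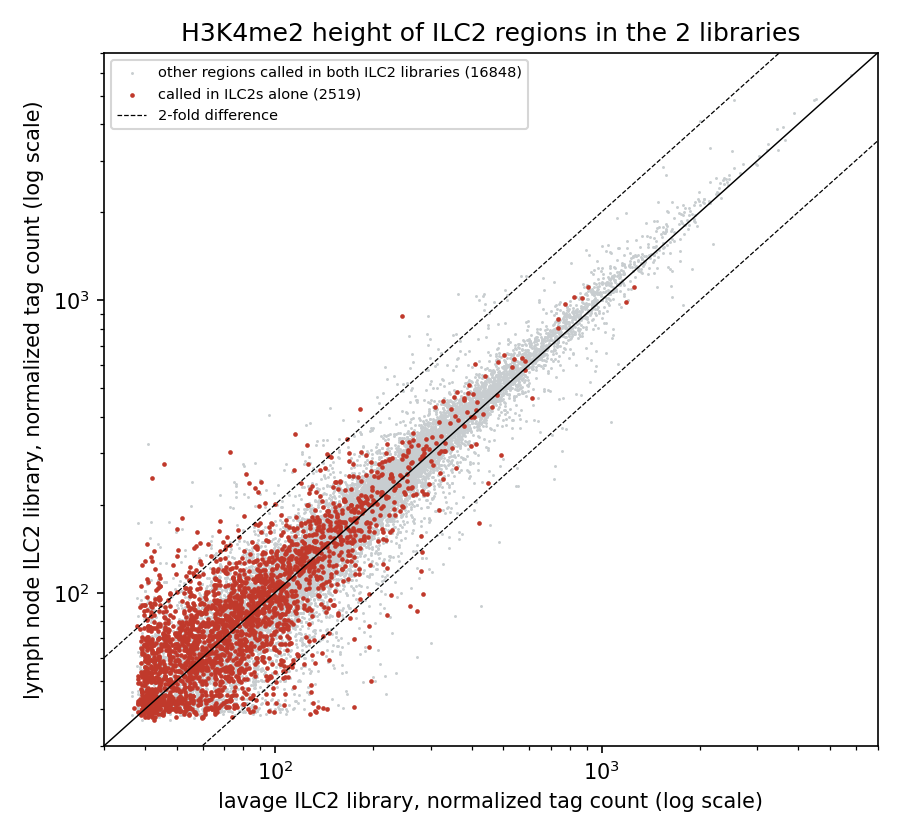
H3K4me2 height in the lavage (x axis) and lymph node (y axis) ILC2 libraries, in normalized tags on log scales. Each of the 2519 red points is a region called in ILC2s alone and each of the 16848 grey points another region called in both ILC2 libraries; the solid line marks equal heights and the dashed lines a 2-fold difference. The red points crowd near 40 to 110 tags, and 3 of them have a mean of at least 1000.

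The tallest ILC2-alone region lay in Rgs18, which encodes a regulator of G protein signalling, with 1259.1 and 1109 tags over 12965 bp (chr1:144764208-144777173). A region in Sema6d, a semaphorin gene, followed with 1190.2 and 987.3 tags and was the widest at 14776 bp (chr2:124608737-124623513). Next came the region beside Arg1, the arginase gene that ILC2s are known to express, with 908.8 and 1107.7 tags (chr10:24950417-24961204). All 3 stood above the 95th percentile of the shared ILC2 regions, which was 621.38 and 660.1 tags. The nearest called peak of a T cell library was 407090 bp from the Rgs18 region, 95635 bp from that in Sema6d and 21635 bp from that beside Arg1.

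The fourth tallest (chr2:9172856-9181822) reached 873.9 and 1015.3 tags. It had no protein-coding or receptor constant gene within 100 kb, although a listed start site lay 7693 bp away. It lay 675.256 kb from Gata3, which encodes the lineage factor of type 2 lymphocytes, and was 1 of 11 ILC2-alone regions within 1 Mb of that gene. A group of 5 of them lay 668.459 to 727.738 kb away. Apart from the tall one, those 4 had 48.9 to 152.3 tags in the lavage and 56.5 to 263.2 in the lymph node library, so 1 member of the group was much the highest. Of the others, a region 81.844 kb away, assigned to Taf3, had 296.6 and 310.1 tags. Whether any of them acts on Gata3 cannot be read from position.

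The next 6 by height lay in Pan3, a subunit gene of an mRNA deadenylase (826.2 and 1024.1 tags), Cep290, a ciliary gene (774.9 and 971.1), Rab27b, a GTPase gene of vesicle secretion (736.4 and 864.6), Dkk3, a gene of the secreted dickkopf family (733.6 and 800.7), Hs3st1 (572.4 and 636.4) and Slain1, a microtubule-binding protein gene (581.3 and 622). The lymph node value was the higher in all 6. In Hs3st1 the region contains the promoter printed above, and no peak of another library was called within 771736 bp. The 5 widest regions added Fut8, a fucosyltransferase gene, where a region of 13644 bp had 884.8 tags in the lymph node as 1 peak, and 2 peaks in the lavage, of which the taller had 245.3.

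At the other end of the scale, the lowest members had 38.9 and 38.1 tags on chromosome 17, 38.1 and 39 near Smad4, and 36.9 and 40.3 in Atp2b1. Just outside the rule were 703 regions called in both ILC2 libraries and exactly 1 other, of which 368 had under 50 tags in that other library. The other library was thymus for 177, lavage naive T for 149, lymph node naive T for 128, lymph node Th2 for 127, lavage Th2 for 92 and spleen for 30. A further 1425 were called in 1 ILC2 library and no other, 629 lavage-only and 796 lymph-node-only, and 870 of these had under 50 tags. Members and their neighbours across the threshold therefore overlapped in height. The nearest called peak of another library lay at a median of 17983 bp from the members. No such peak lay within 2500 bp for 2359 of the members (93.6%), within 10000 bp for 1644 (65.3%) and within 100000 bp for 343. The rule itself excludes peaks within 500 bp, and these distances do not measure signal under the tag minimum.

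Most ILC2-alone regions lay inside genes but away from the start sites listed for them. A protein-coding or receptor constant gene overlapped 1673 of them, or 66.4% (95% Wilson interval 64.5 to 68.2, for counting error only), against 72.2% of all merged regions, 87.9% of those called in all 8 libraries and 54.8% of those in thymus alone. The nearest gene was up to 10 kb away for a further 212, between 10 and 50 kb for 312 and between 50 and 100 kb for 128. The other 194 (7.70%) had no gene of these types within 100 kb.

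Start sites were read from the RefSeq promoter table, which covers 17492 of 21900 protein-coding genes (79.9%) and none on chromosome 18, where 84 of the regions lie. Of the other 2435 regions, 225 contained a listed start site, which is 9.24% (interval 8.15 to 10.5). The share was 34.5% over all merged regions, 68.3% over regions called in all 8 libraries, 53.7% over ILC2 regions shared with at least 1 other library and 7.40% over thymus-alone regions. Under a common upper limit on height the shares inside genes came close and those at start sites did not. Heights below that limit were not matched, and median width was 1581 bp in the ILC2-alone regions and 2131.5 bp in the others. Among regions with a mean of at most 112.6 tags, 64.0% of 1889 ILC2-alone regions and 66.3% of 4822 other ILC2 regions overlapped a gene, while 7.68% and 30.5% contained a listed start site. Inside a gene and without a listed start were 1424 regions (58.5%), against 39.8% of all merged regions and 49.3% of those in thymus alone. Over 10000 bp from any listed start lay 1709 (70.2%), against 48.6% and 68.0%. Because the table is incomplete, these distances are upper limits.

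**Figure D2:**
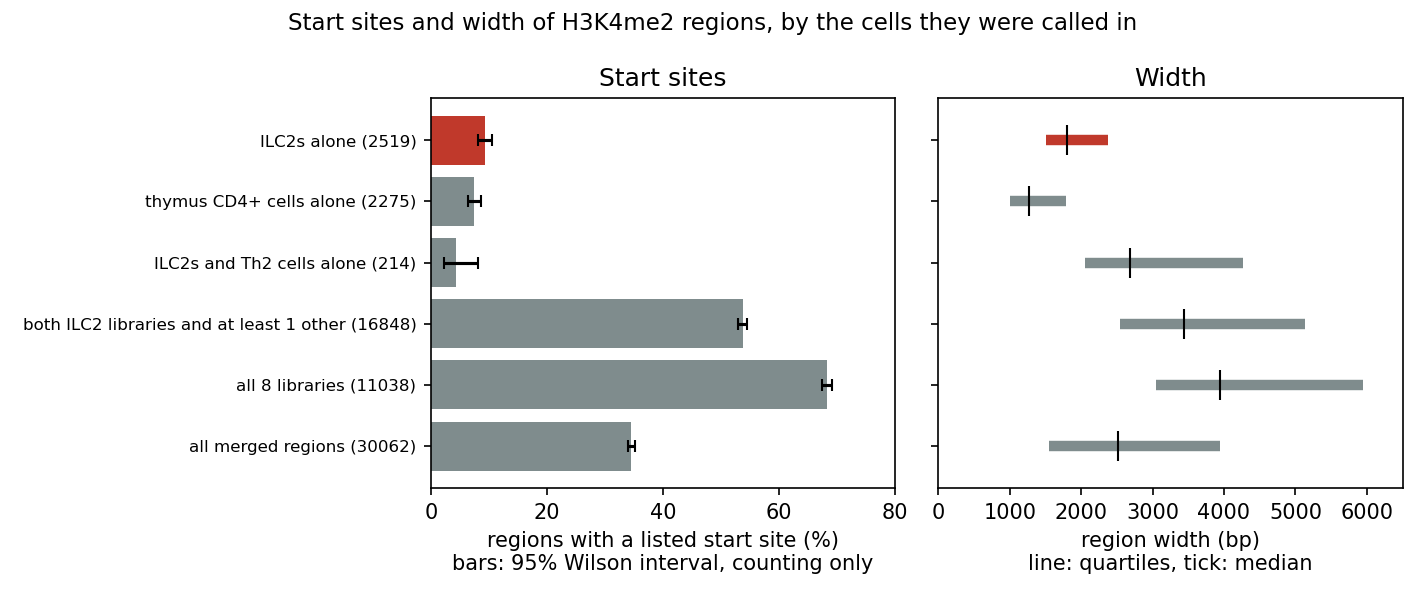
Left, share of regions that contain a listed start site (x axis, percent; error bars, 95% Wilson interval for counting error) for regions grouped by the cells they were called in, with the number of regions in brackets. Right, region width in bp (line, quartiles; tick, median). ILC2-alone regions have 9.24% and 1799 bp, regions called in all 8 libraries 68.3% and 3943.5 bp.

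Where a start site did fall in an ILC2-alone region, the promoter was poorer in CpG than those called everywhere. A total of 258 promoter windows of 227 genes, 159 protein-coding and 68 lncRNA, lay wholly in 207 of the regions. Their median GC content was 55.5% with 12 CpG, against 61.7% and 22 for the 10816 windows in regions called in all 8 libraries and 52.7% and 7 for all 32817 windows. A GATA string was found in 18.6% of them, 9.37% of the windows called in all 8 and 18.6% of all windows. For the ROR half-site the shares were 14.7%, 11.3% and 16.3%, for AP-1 8.14%, 4.29% and 7.81%, for RUNX 12.8%, 12.3% and 16.8%, and for ETS 20.2%, 30.2% and 23.8%. Beside all windows, AP-1 had a slightly higher share in the ILC2-alone windows, and the other motifs had an equal or lower one.

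The starts of genes with ILC2-alone regions were called in various sets of libraries. Of the 1307 such genes with a listed start, 721 (55.2%) had one in a region called in all 8 libraries, 157 (12.0%) in an ILC2-alone region, 142 (10.9%) in a region called in both ILC2 libraries and some others, 36 in one not called in both ILC2 libraries and 251 (19.2%) in none. Over all 10407 genes with a merged region and a listed start, 66.4% had one in a region called in all 8 libraries. For 14.4% it lay in none, and for 1.51% in an ILC2-alone region. The last share counts the same 157 genes, so it differs from the 12.0% only by its denominator and is no background for it.

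Of the 1005 microRNA hairpins in the RefSeq table, 6 lay in 5 of the regions (0.198%), and 181 lay in 159 of all merged regions (0.529%). The tallest of the 5 was at Cxxc4 and held Mir1895, with 348.4 and 311.9 tags. The pair Mir29a and Mir29b-1 shared a region on chromosome 6 (chr6:31062467-31066875) with 205.2 and 221.6 tags. Mir152 lay in one next to Copz2 with 80.6 and 53.4. Mature arms of Mir28a, which is not among the 6 hairpins, lay in a region of Lpp with 280.6 and 118.7 tags. The RefSeq sequence of 1 mature arm of each of these 4 loci follows, with the seed, bases 2 to 8, in capitals. The miR-29 3p arms have the seed AGCACCA in common.
mmu-miR-29a-3p: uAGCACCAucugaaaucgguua
mmu-miR-29b-3p: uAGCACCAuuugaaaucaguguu
mmu-miR-28a-5p: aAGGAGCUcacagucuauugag
mmu-miR-152-3p: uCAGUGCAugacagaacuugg

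The miR-29 family is known for silencing collagen genes and, in T cells, the transcripts of T-bet and interferon gamma. H3K4me2 at a hairpin does not measure the mature RNA.

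ILC2-alone regions were often neighbours. Along the chromosomes they formed 1985 runs, in which no other merged region intervened, and 357 runs of 2 or more held 891 of them (35.4%). The next region along the chromosome was again ILC2-alone for 21.2% of them, while 8.37% of all merged regions are followed by one. Of the 112 runs of 3 or more, the longest had 9.

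That run lay in the CXC chemokine cluster of chromosome 5 (chr5:90676825-90909427), which holds Cxcl5, Ppbp, Pf4, Cxcl3, Cxcl15, Cxcl1 and Cxcl2. Most of these chemokines recruit neutrophils through CXCR2, and Pf4 and Ppbp are best known from platelets. The tallest of the 9 was at Cxcl5, with 254.2 and 254.9 tags. Regions over Cxcl2 had 170 and 155.9, over Cxcl3 167.6 and 134.9, and one 21188 bp from Cxcl1 had 162.8 and 208.5. The lowest 2, beside Cxcl5 and Cxcl2, had 47.7 and 59.1, and 45.7 and 41.2. Over 232.602 kb no T cell library had a called peak. None of the 10 neutrophil genes of the list compared here had a region in any library.

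Another run of 7 on the X chromosome stretched over 2470.97 kb past Radx and Rnf128, a stretch with no other merged region. Runs of 6 lay in Plekhg1, around Vegfc, a lymphatic growth factor gene, and from Bmp5 to Hcrtr2. Among those of 5 was one at Kitl, the ligand gene of the receptor KIT, over 506.649 kb, where a region at the Kitl start had 155.1 and 181.8 tags.

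By nearest gene within 100 kb, 1694 genes had at least 1 ILC2-alone region, 390 had 2 or more, 136 had 3 or more and 27 had 5 or more. The 136 genes held 513 of the regions. They were long genes, with a median of 171 kb against 53.3 kb for genes with 1 such region and 25.4 kb for all 12996 genes with a merged region. Of the 8080 regions assigned to genes of 100 kb or more 12.3% were ILC2-alone, and of the 20531 assigned to shorter genes 6.48%. Under an assignment to every gene within 50 kb the 136 became 239, and without the lavage ILC2 library 217.

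**Figure D3:**
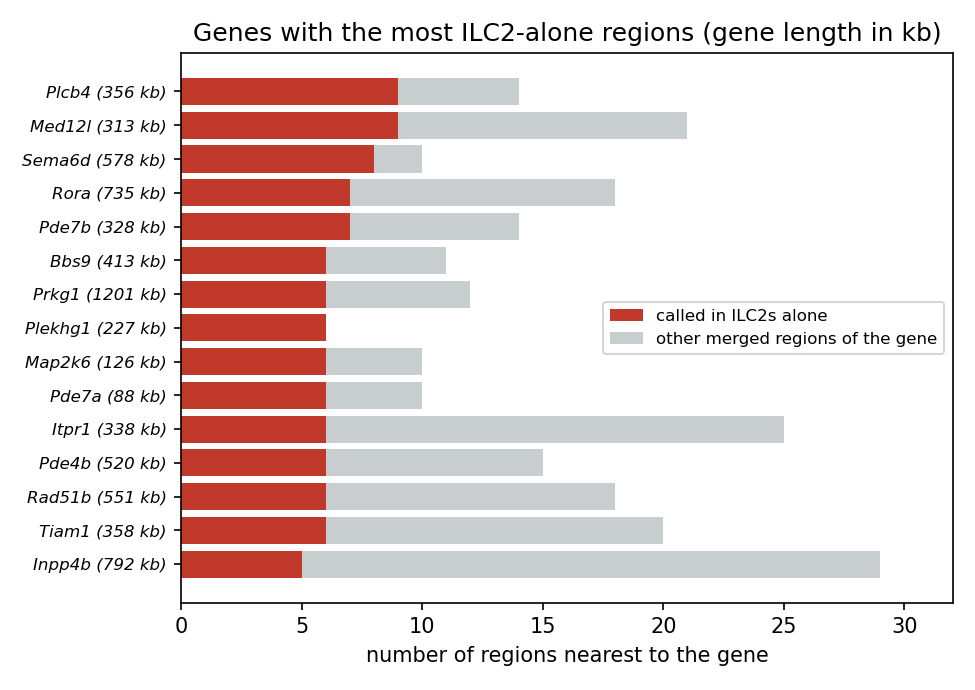
Number of regions assigned to each of the 15 genes with the most ILC2-alone regions (x axis), with ILC2-alone regions in red and all other merged regions of the gene in grey; gene length in kb is in brackets. Plcb4 has 9 of 14, Sema6d 8 of 10 and Plekhg1 6 of 6, while Inpp4b has 5 of 29.

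Plcb4 and Med12l headed this order with 9 each. Plcb4, which encodes phospholipase C beta, the enzyme that turns receptor signals into inositol trisphosphate and diacylglycerol, had 9 ILC2-alone regions of 14. All 9 were at or above 90.6 and 85.9 tags, and the tallest had 531.2 and 589.6. The region at the lower end of the gene was called in T cell libraries too, whereas 8 of the 9 lay within the gene and the last 5558 bp outside it. Itpr1, the receptor for inositol trisphosphate on the calcium store, had 6 of 25, at 53.4 to 137.35 tags in the mean of both libraries. Inpp4b, a phosphoinositide phosphatase gene, had 5 of 29, at 40.1 to 287.4. Stim2, a sensor of stored calcium, had 3 of 9 and Atp2b1, a plasma membrane calcium pump gene, 3 of 8. Together the calcium and phospholipid list had 47 ILC2-alone regions among 308 (15.3%), 9 of them from Plcb4, against 8.38% of all regions and 12.3% of those near genes of 100 kb or more. With at least 80 tags in both ILC2 libraries the list had 26, of which Plcb4 had 9 and Itpr1 2. The total of ILC2-alone regions also falls at that setting, as given above with the widths. Counts of lists at 80 tags, here and below, are to be read beside that total and not beside the 8.38%.

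**Figure D4:**
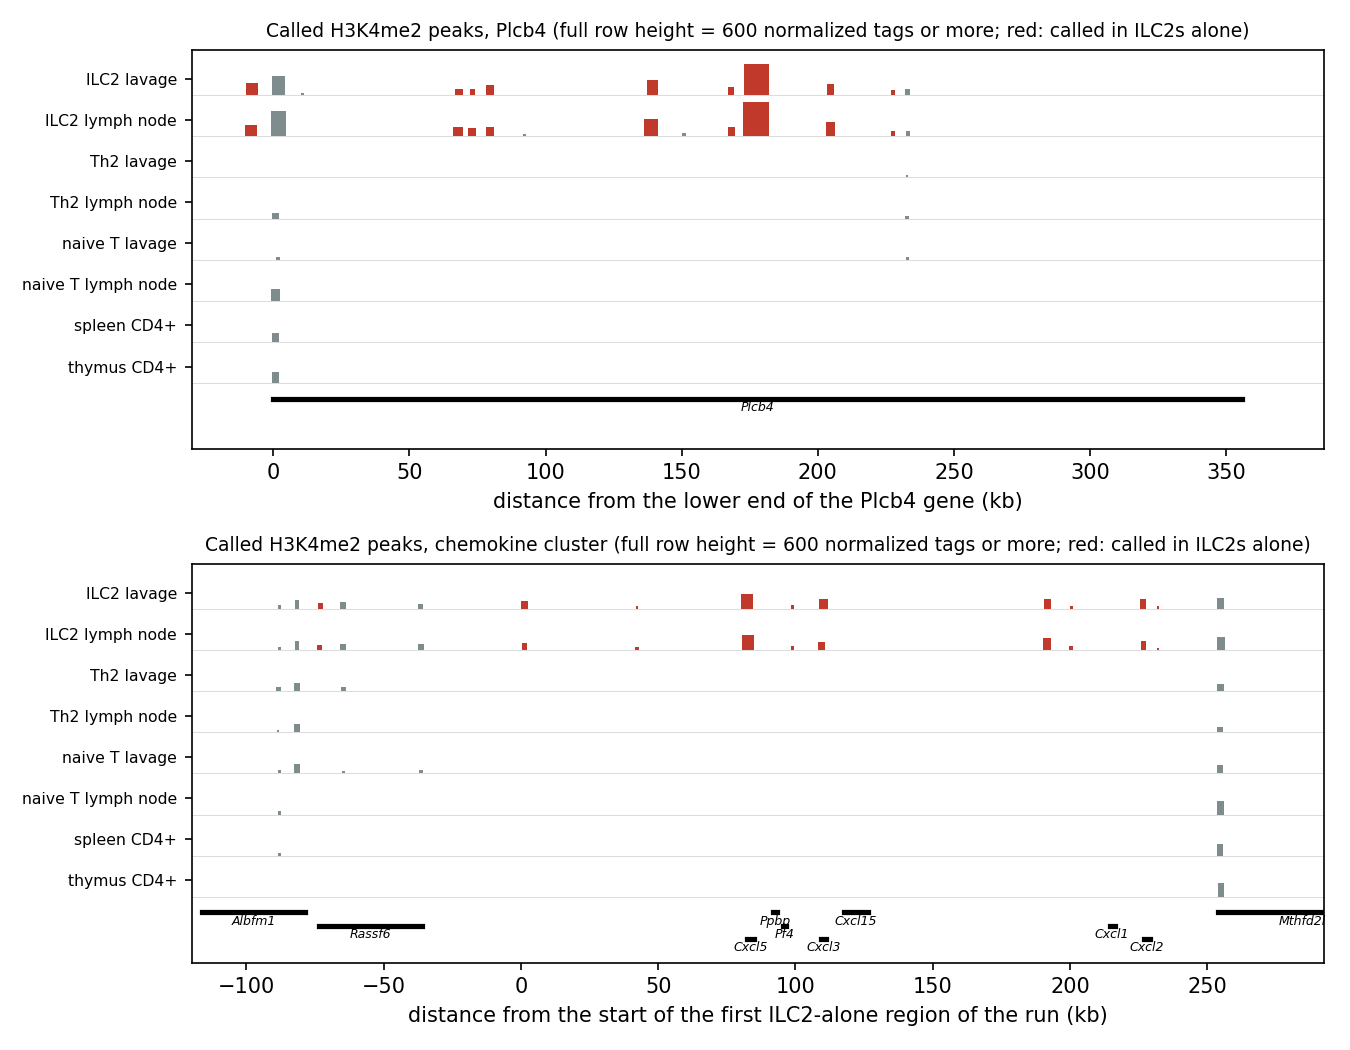
Called H3K4me2 peaks of the 8 libraries over Plcb4 (top) and the chromosome 5 chemokine cluster (bottom); x axis, distance in kb from the lower end of Plcb4 or from the start of the first region of the run. Bar width is the peak's width and bar height its normalized tags, cut off at 600; red bars belong to ILC2-alone regions and grey bars to others, and black lines are genes. The red bars stand in the 2 ILC2 rows, in 9 places at Plcb4 and 9 in the run, and 1 further ILC2-alone region lies left of the run, in Rassf6.

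Genes of cyclic nucleotide breakdown and response also stood in this order. The cAMP phosphodiesterase genes Pde7b, Pde7a and Pde4b had 7 of 14, 6 of 10 and 6 of 15 regions ILC2-alone. Their tallest had 200.4 and 160.8, 133.5 and 150.7, and 131.9 and 122.2 tags, so all 3 genes had regions of moderate height. At 80 tags or more in both ILC2 libraries 2, 2 and 1 regions were left at these genes, and 3, 2 and 1 with equal numbers of peaks per library. Prkg1, the cGMP-dependent protein kinase gene, had 6 of 12, and its tallest reached 407.3 and 398.2 tags. The list had 34 of 204 (16.7%), and 11 at 80 tags or more. Among small GTPase regulators it was 34 of 268 (12.7%), close to the 12.3% of regions near genes of 100 kb or more, and 7 at 80 tags or more. Regions called in ILC2s alone were 6 of 20 at Tiam1 and 4 of 5 at Dock5, both activators of Rac. Most Tiam1 regions were low, 4 of the 6 lying at 38.9 to 42.5 tags in the lavage, while Dock5 had one at 255 and 268.9.

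The other genes at the top of the order have varied roles. Med12l, a Mediator subunit gene, had 9 of 21, and its tallest region (354 and 465.6 tags) overlapped P2ry12, while one of 263.8 and 332.5 overlapped P2ry14. Both are purinergic receptor genes nested within Med12l, so the nearest gene cannot be told apart there. Sema6d had 8 of 10, and beside the tall one the other 7 had at most 201.6 and 178.7. Map2k6, a kinase gene upstream of p38, had 6 of 10 with a tallest of 302.7 and 339.9. Bbs9, of the ciliary BBSome, had 6 of 11 with a tallest of 391.3 and 481.4. Rad51b, of DNA repair, had 6 of 18, all at or below 94.2 and 89.4. Plekhg1 had 6 of 6, from 41.7 and 45.6 to 283.8 and 309.2.

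Plekhg1 was 1 of 303 genes for which every merged region was ILC2-alone, and 1 of 16 of these with at least 3. Stab2, a scavenger receptor gene, had 4 of 4 with a tallest of 581.3 and 579.1 tags. Alox5 had 3 of 3, at 410.9 and 603.6 over its promoter, 223.7 and 287.3, and 54.9 and 122.6 within the gene. Hmgcll1 had 3 with a tallest of 322.7 and 344.3, and Neurod1, a neuronal transcription factor gene, 3 with a tallest of 359.2 and 267.2 lying 60174 bp away.

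**Figure D5:**
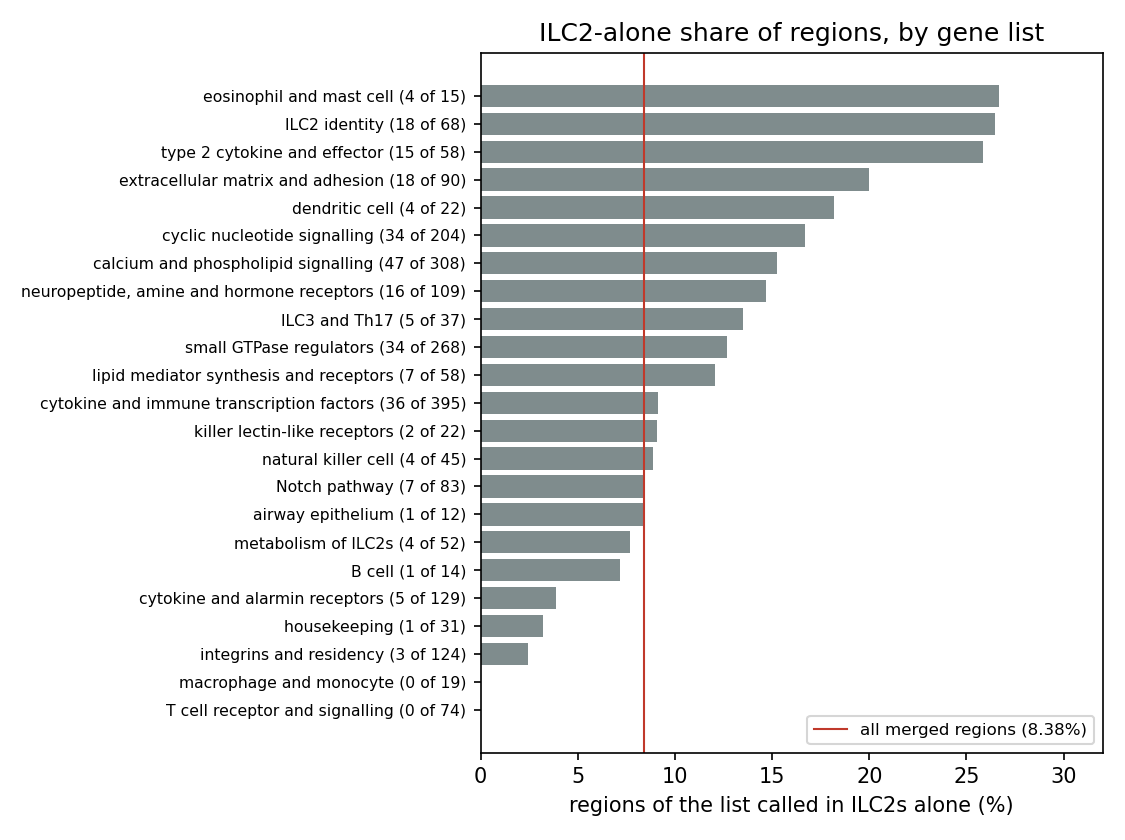
Share of the merged regions assigned to each gene list that were ILC2-alone (x axis, percent), with both counts in brackets; the red line is the 8.38% of all merged regions. Lists of ILC2 identity and type 2 effector genes have 26.5% and 25.9%, the T cell receptor list 0 of 74.

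Around some of the genes that define ILC2s the share was high. The ILC2 identity list had 18 ILC2-alone regions among 68 (26.5%), from 7 of the 16 genes with a region. Gata3, Il1rl1, Klrg1, Il2ra, Icos, Thy1, Il5, Il13 and Ly6a had regions assigned, but none that was ILC2-alone. Rora and Kit held most of the 18. Rora spans 734.843 kb, and near genes of 100 kb or more 12.3% of regions were ILC2-alone. Rora, the gene of RORα, contributed 7 of its 18, with a tallest of 244.9 and 326.8 tags and 3 others above 100 tags in both libraries. Kit, the stem cell factor receptor gene, had 4 of 8, of which 2 inside the gene had 361.2 and 485.8, and 386 and 414.4. Arg1 had 2 of 3. Id2, a regulator required by all innate lymphoid cells, had 2 of 5, at 252.6 and 293.5, and 130.7 and 116.5. Nmur1, the neuromedin U receptor gene, and Areg, the amphiregulin gene, had 1 each, at 81.4 and 112.6, and 109.8 and 112.1. The list was drawn up from what ILC2s are known for, with earlier results of these data in view. Within 10 kb in place of 100 kb its count was 10.

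The type 2 cytokine and effector list had 15 of 58 (25.9%), from 8 of 21 genes with a region. At Il6 there were 3, all 56318 bp or more away, the tallest with 378 and 455.5 tags. Csf2, the GM-CSF gene, had 3 at 6366 to 53576 bp, with 181.6 and 95 in the tallest. Il9 had 2 of 2, with 88.2 and 129.2, and 41.3 and 39.9. Bmp2 had 1 at 240.9 and 190.5, and Tph1 its promoter region at 169.2 and 81.9. Tnfsf11, the RANKL gene, had 2, of 85.4 and 100.3, and 84.6 and 63.5. Il5 and Il13 had 1 region each, neither of them ILC2-alone. Arg1 and Areg stand on this list as well. The count was 5 within 10 kb and 8 with equal numbers of peaks.

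Cytokine and alarmin receptor genes had few, 5 of 129 (3.88%). The exceptions in height were Il18r1 (330.7 and 325 tags) and Il18rap (174.4 and 150.7), the subunits of the IL-18 receptor, and Il7r had 1 of 46.1 and 89.4 at 16805 bp. The list of neuropeptide, amine and hormone receptors had 16 of 109 (14.7%). Vipr2, the receptor gene for vasoactive intestinal peptide, had 2, at 286.6 and 217.7, and 162 and 151.1. Calcrl, of the CGRP receptor, had 3, with a tallest of 148.3 and 106.4. Pparg, the lipid-sensing nuclear receptor gene, had 2, at 197.2 and 260.2, and 75.8 and 82.3. Nr3c1, the glucocorticoid receptor gene, had 3, the tallest with 109.8 and 141. Lipid mediator genes had 7 of 58 (12.1%), of which 3 belong to Alox5 and 2 to Cysltr2, a leukotriene receptor gene.

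The list of cytokine and immune transcription factors, which includes Rora and Id2, was near the background with 36 of 395 (9.11%). Extracellular matrix and adhesion genes had 18 of 90 (20.0%), of which 8 belong to Sema6d. The Notch list had 7 of 83 (8.43%), with 3 at Maml2, a Notch coactivator gene. Metabolic genes had 4 of 52 (7.69%), killer lectin receptors 2 of 22 (9.09%), integrin and residency genes 3 of 124 (2.42%), and housekeeping genes 1 of 31 (3.23%). None of the 74 regions near T cell receptor and signalling genes was ILC2-alone, and without the lavage ILC2, the lymph node naive T or the thymus library 1 was. A region of 479 and 473.9 tags that overlaps Trdv4, a variable segment of the T cell receptor delta chain, was assigned to Trdc. That gene is 64210 bp away and not on that list, and the region was named after its values were seen. Its fold over IgG was 67.59 and 66.87. Receptor genes are rearranged in T cells, and whether the T cell and IgG libraries still hold this stretch of DNA was not tested.

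Genes known from other cells of the airway were also among them. The eosinophil and mast cell list had 4 of 15 (26.7%), at Cpa3 (219.7 and 321.9 tags), Gata2 (176 and 116.1), Ccr3 (67.3 and 162.1) and Cma1 (128.3 and 38.5). Summed over the list, the ILC2 libraries had 1504.7 and 1694.7 tags and the T cell libraries 572.3 to 891.8. Of its 15 genes, 5 had a peak in the ILC2 libraries, 5 in the lymph node naive T library and 2 or 3 in the other T cell libraries. Siglecf, Epx, Prg2, Mcpt4, Mcpt8, Tpsb2, Fcer1a and Ms4a2 had no region in any library, and Il5ra and Gata1 had none in ILC2s. The count was 2 when both ILC2 peaks had to reach 80 tags. Whether other cells in the sort had a part in these regions was not tested. Dendritic cell genes had 4 of 22 (18.2%), at Cd74 (164 and 174.8), H2-Aa (59.3 and 78.4) and with 2 regions at Batf3. In each ILC2 library 10 of these 13 genes were marked by a peak, against 5 to 9 across the T cell libraries. Clec9a, Cd209a and Siglech had none in any library. Their summed heights were 2227.8 and 2151.9 tags in ILC2s and 632.5 to 2078.6 in the T cell libraries. Thymus, at 2078.6, thus came close to ILC2s. The list of natural killer cell genes had 4 of 45 (8.89%), ILC3 and Th17 genes 5 of 37 (13.5%), of which 3 at Il17a had at most 83 and 75.3 tags, airway epithelium 1 of 12 (8.33%), B cell genes 1 of 14 (7.14%) and macrophage and monocyte genes 0 of 19.

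Heights in the lavage and lymph node ILC2 libraries followed each other less closely than in other ILC2 regions. The Spearman correlation across regions was 0.74 for the ILC2-alone regions and 0.95 for the others, whose heights span a wider range. With 1 library per site no difference between sites could be tested. Lavage was at least 2-fold higher in 49 regions (1.95%), against 1.19% of all regions called in both ILC2 libraries. The lymph node was at least 2-fold higher in 94 (3.73%), against 1.27%. In either direction, 143 of the 2519 differed by at least 2-fold (5.68%), and 10 of the 173 with a mean of 200 tags or more did, a similar share. Among regions with a mean of at most 112.6 tags, 1.85% of the ILC2-alone ones were higher in lavage and 3.60% in lymph node, and 2.34% and 1.37% of the others. Expressed as tags per kb of peak, 0 regions differed by 2-fold. Width and mean height ran together across these regions (Spearman 0.93), so dividing by width leaves little room for such a difference.

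By the height of the tallest peak, the largest ratios to the lymph node were at 1700057G04Rik (45.7 and 274.6 tags), in Cdon, a cell surface coreceptor gene for hedgehog (42.1 and 246.2), and 10097 bp from Pard3, a cell polarity gene (73 and 301.8). Each of these was 1 peak in the lymph node and 2 in the lavage, and by sums over their peaks the ratios were 3.13, 2.94 and 2.11 in place of 6.01, 5.85 and 4.13. Regions of 1 peak in each library had ratios above these sums at Lsm14a (40.5 and 146.7 tags, 3.62-fold), Bbs9 (52.1 and 180, 3.45-fold) and Kdm3a (50.1 and 164.7, 3.29-fold), named after their values were seen. The largest to the lavage were in Gas7 (174.4 and 40.7), Foxl2 (196.4 and 49.9) and Tmem43 (143.9 and 39.9). These were 1 peak in each library.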

How the data were processed

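H3K4me2 was measured by chromatin immunoprecipitation and sequencing with Nextera libraries, per the labels' protocols, in 8 libraries. Per the submitters' processing notes, Bowtie, HOMER and mm10 were used; their versions are not given in the sources used here. HOMER findPeaks called the peaks of each library separately, per the file headers, with a peak size of 1000 bp, a minimum distance of 2500 bp, stitching into regions, a false discovery rate of 0.001, at least 4-fold more tags than IgG, and a minimum of 39.9 to 40.4 per 10000000 tags. The deposited signal (height) is the normalized tag count of a peak, scaled by the authors to 10000000 tags. The fold change (ratio) over IgG is the authors' own value per peak. IgG libraries enter only through it. Absence of a peak means that these criteria were not met, not that the mark is absent.

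From these lists, peaks within 500 bp were merged (Python 3.11.15, pandas 2.3.3, scipy 1.17.1), and each region was assigned to the nearest gene (protein-coding, or a receptor constant segment) within 100 kb, from RefSeq tables of GRCm38.p6. Exons and introns were not told apart. The merging recovered the planted regions of simulated lists. No p-values were computed, as the rule used the calls of all 8 libraries and each site had 1 ILC2 library; Wilson intervals cover counting error only. Members and gene lists were chosen with earlier results of these data known. Genes were named by rule: the 15 with most regions, the 10 tallest and 5 widest regions, up to 4 genes per list, the 6 tallest promoter windows and the 3 largest site ratios in each direction. Exceptions named after their values were seen are the CXC chemokine and other long runs, the genes with no other region, microRNAs, sex chromosome genes, the regions around Gata3, the Trdc region and list genes beyond 4. Other thresholds, merging distances, gene assignments and left-out libraries were tried as alternatives. Distal sequences were not analysed here.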

Additional observations from a re-analysis of the deposited data

How the results depend on the processing

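No paired analysis was possible because no result here comes from a test. The 2519 regions became 910 when both ILC2 peaks had to reach 80 tags, 1551 when every library's peaks had to, and 961 with the 14723 tallest peaks of each library; fewer peaks enter under all of these by construction. Under the same settings the share overlapping a gene was 71.9%, 70.1% and 73.5% in place of 66.4%, the genes with 3 or more regions numbered 25, 62 and 28 in place of 136, and the regions with a 2-fold difference between sites 28, 38 and 20 in place of 143. Of the 15 genes with the most regions, 7 had a count within 1.5 times their own at 80 tags in both ILC2 libraries and 5 with equal numbers of peaks. With genes of every type the overlap was 75.1%. Counting every gene within 50 kb gave 239 genes. Tags per kb of peak, which divides out the width that height runs with, left 0 regions with a 2-fold site difference. Leaving out each library in turn gave 2549 to 3341 regions, an overlap of 64.9% to 66.7%, 136 to 217 genes, the highest without the lavage ILC2 library, and 144 to 156 regions with a site difference, which needs both ILC2 libraries. Chosen after seeing the data, leaving out both Th2 libraries gave 2963 regions, both naive T libraries 2822 and chromosome Y 2515. Merging distances of 0 and 2500 bp, an 8-fold excess over IgG, and the 2 rules on the distance and overlap of other peaks gave 2181 to 2525 regions, 66.5% to 67.8%, 96 to 137 genes and 108 to 144 regions with a site difference. Region height is limited by depth, and regions near 40 tags can fall on either side of the minimum.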

Other observations

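Of the 227 genes with a promoter window wholly in an ILC2-alone region, 5 more are described here, chosen after their values were seen. Nlrp3, the inflammasome sensor gene, had 196.4 and 213.8 tags in the lavage and lymph node ILC2 libraries. Gpr35, a G protein-coupled receptor gene, had 156.3 and 225.6 tags. Anxa1, which encodes the glucocorticoid-induced protein annexin, had 232.1 and 203.7. Lpcat2, an acyltransferase gene of platelet-activating factor synthesis, had 245.7 and 248.8, and no peak of another library was called within 488598 bp. Txk, a Tec family kinase gene, had 261.4 and 227.3, with a peak of another library 1964 bp away.

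Stretches without protein-coding genes held runs as well. A run of 5 on chromosome 1 spanned 159.543 kb and another of 5 on chromosome 13 spanned 195.729 kb. Neither had a protein-coding or receptor constant gene in its span or within 100 kb of its regions. Genes of other types were not counted there. Mean heights ran from 46 to 197.45 tags in the first and from 64.4 to 80.85 in the second.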
